A study of Mus musculus with 6 samples.

Results

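The YTHDC1 binding peaks of 8 genes that make or regulate the splicing machinery of the nuclear speckle were described: Son, Srrm2, Srrm1, Luc7l3, Ddx5, Ddx17, Clk1 and Clk4. Members were the peaks of 6 LACE-seq libraries that lay inside the mm9 GENCODE interval of a gene and were listed on the strand opposite to it, which in these files is where reads from its RNA fall (here called the RNA strand). This gave 465 of 178779 peaks, in 8 of 22359 protein-coding genes. In LACE-seq, cells are irradiated with UV light, the protein is immunoprecipitated with its RNA, and reverse transcription stops at the crosslinked nucleotide, so that reads end where the protein was bound. The ASC-48 hr libraries came from wild-type mouse satellite cells, the stem cells of skeletal muscle, activated by 48 hr in culture, as 2 biological replicates (B1, B2) with 2 technical replicates each (T1, T2). The C2C12 libraries (replicates 1 and 2) came from the established mouse myoblast line of that name, also wild type and grown in growth medium. All 6 libraries used the same YTHDC1 antibody, and the C2C12 libraries were made from many more cells. The labels number the C2C12 libraries as biological replicates while the study's text calls them technical, so the spread between them may be technical. Strain, sex and age of the mice behind the ASC libraries are not given in the labels. The study sorted its satellite cells by a GFP or EYFP reporter, so wild type here does not mean free of a reporter. Which reporter mice served for these libraries is not stated.

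YTHDC1 is the nuclear reader of N6-methyladenosine in RNA and is known for roles in splicing and export. Nuclear speckles are bodies in which splicing factors gather, and SON and SRRM2 form their core. SRRM1 is a splicing coactivator with a partner role to SRRM2, and LUC7L3 is a relative of a yeast U1 snRNP protein. DDX5 and DDX17 are paralogous DEAD-box RNA helicases with roles in splicing and transcription. CLK1 and CLK4 are kinases that phosphorylate SR proteins and so release them from speckles. Transcripts of several of these genes are known to keep introns while still in the nucleus. Intron retention, m6A and RNA abundance were not measured in these libraries, and in bulk libraries fewer bound molecules, less RNA per cell and fewer cells cannot be told apart.

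Some bound sites of 6 of the genes are shown first, because the results turn on where in each gene they lie. In each sequence, read 5′ to 3′ on the RNA strand of mm9, the capitals mark the first 20-nt bin of the peak and the lower-case letters the 5 nt on each side. They are the C2C12 peaks with most reads, as a mean of both replicates, in the exons or introns of the gene named, with ties given to the lowest coordinate. They are not the highest of all, since shared peaks in exons of Srrm2 reached a mean of 22.
Srrm2 intron 12, chr17:23960356-23960385 (+): attcaAACAGCACCTCCGAGAAGACtgccc
Son exon 3, chr16:91655836-91655865 (+): ccagaGTTGTCAGGGCCCCTTTCTAcccca
Ddx17 exon 13, chr15:79359316-79359345 (-): aggctCTCCTTACTCTCTGGAGTGTgaagg
Ddx17 intron 11, chr15:79363716-79363745 (-): cagtcTGACCCTTTGGATGTAACTTttttt
Ddx5 exon 1, chr11:106649756-106649785 (-): ttgccCTCGCAGCTCCGGCCCTCGAcacca
Ddx5 intron 11, chr11:106644016-106644045 (-): cgtacATTGCTATTTTGCCACACTGcaaca
Srrm1 intron 9, chr4:134890736-134890765 (-): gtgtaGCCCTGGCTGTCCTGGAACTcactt
Luc7l3 intron 1, chr11:94172036-94172065 (-): cttggTTGACCTGACACTCTATGTAgacca
The 20-nt bin of Srrm1 occurs 64732 times in the genome, so the reads there cannot be assigned to Srrm1. For each of the other 7 peaks the bin counted occurs 1 time. Copies were counted for the bin at the lowest coordinate of a peak. In Ddx5 intron 11, on the minus strand, that is not the bin printed.

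A C2C12 shared peak was defined as a replicate 1 peak with an overlap of 1 nt or more with any replicate 2 peak of its strand. The 8 genes held 209 peaks in replicate 1 and 222 in replicate 2, and 134 were shared. Of the replicate 1 peaks, 64.1% were found again (95% exact interval 57.2 to 70.6), against 45.4% over all protein-coding genes. An overlap of 1 nt is met more easily where replicate 2 peaks lie close together, as in Srrm2 and Ddx17. How far this raised the share was not tested. Of the 134 shared peaks, 132 lay in Srrm2, Ddx17, Son and Ddx5. At least 1 shared peak was found in 6 of the 8 genes, and 21.8% of all protein-coding genes had one. Counting only peaks whose bin at the lowest coordinate occurs 1 time in the genome left 115 shared peaks in 5 genes, without Srrm1. The number of reads per 20-nt bin, the signal deposited for each peak, differed between the replicates by no more than a factor of 2 at 133 of the 134 shared peaks. Both lists start at 6 reads per bin and a shared peak must be in both, so low peaks had little room to differ. This agreement thus says little about reproducibility. Mean reads ranged from 6 to 22. The shared peaks included 1 in Srrm2 and 2 in Ddx5 that overlap an annotated miRNA gene of the same strand, and 0 that overlap a gene of the other strand.

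**Figure D1:**
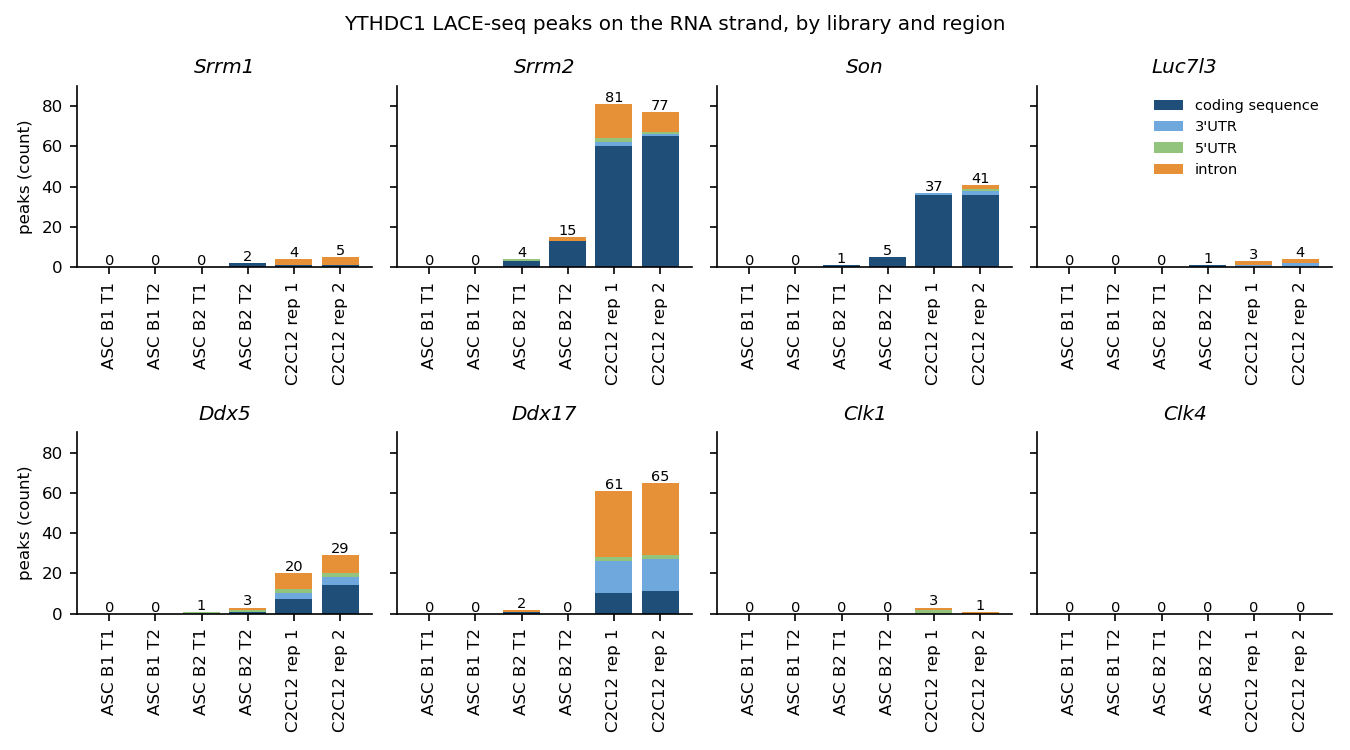
Number of peaks on the RNA strand in each of the 8 genes (y axis, count) for each library (x axis), coloured by region, with the total above each bar. The C2C12 bars of Srrm2 (81 and 77) and Ddx17 (61 and 65) are the tallest, and both ASC B1 libraries are at 0 in all 8 genes.

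Shared peaks gathered in 4 stretches. Exon 11 of Srrm2, exon 3 of Son and intron 11 of both Ddx17 and Ddx5 held 97 of the 134 peaks (72.4%). These stretches were picked after their values were seen. Over the 8 genes, 76 shared peaks (56.7%, interval 47.9 to 65.2) lay in coding sequence, 14 in 3′UTRs, 3 in 5′UTRs and 41 in introns. The intron share was 30.6% (22.9 to 39.1), near the 33.95% over all protein-coding genes. Per kb, the 8 genes held 1.96 shared peaks in exons (1.58 to 2.402) and 0.305 in introns (0.219 to 0.413), a ratio of 6.43 (4.41 to 9.53). Over all protein-coding genes the densities were 0.186 and 0.00684 per kb, a ratio of 27.2. The like intron shares thus go with unlike densities.

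Ddx17 (ENSMUSG00000055065.6, chr15:79358137-79377171, minus strand) held 61 peaks in replicate 1 and 65 in replicate 2, a mean of 63 ± 2.83 (SD, n = 2). Of its 42 shared peaks, 27 were intronic (64.3%, interval 48.03 to 78.4), and 26 of these lay in intron 11 (chr15:79362345-79366386, 4042 nt). Both replicates had 31 peaks there. The other 11 introns, of 10232 nt together, held 1 shared peak, in intron 12, whose 20-nt bin occurs 2553 times in the genome. The density was thus 6.43 per kb in intron 11 (4.20 to 9.43) and 0.0977 in the other introns (0.00247 to 0.545). Intron 11 was picked for its count, so these intervals do not test the difference. The peaks ran along the whole intron, with 3, 4, 12 and 7 in its 4 equal parts from 5′ to 3′, and mean reads were between 6 and 14.5 with a median of 8. The 20-nt bin at the lowest coordinate of each of the 26 peaks occurs 1 time in the genome.

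Of 184407 introns of reference transcripts, 1.7% held a shared peak, as did 9 of the 103 in the 8 genes, and 0.0472% held 10 or more. Ddx17 intron 11 ranked 11th of all, and was the shortest of the 11 introns with at least 26 shared peaks, whose median length was 60603 nt. Among the 153266 introns of up to 5000 nt it ranked 1st by number of shared peaks. It was not alone, since intron 6 of the hnRNP gene Hnrnpl, of 3108 nt, held 22.

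Exons of Ddx17 held 15 shared peaks. Exon 13, which ends the transcript with 2811 nt, held 13 of them, 10 in the 3′UTR and 3 in coding sequence. The highest, printed above, had 17 reads per bin in replicate 1 and 10 in replicate 2. From intron 11 to the end of the gene, which is 43.3% of its length, lay 41 of the 42 shared peaks (97.6%). The remaining peak, in exon 8, had 9 and 7 reads.

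Ddx5 (ENSMUSG00000020719.7, chr11:106641669-106650499, minus strand) had 20 and 29 peaks, a mean of 24.5 ± 6.36 (SD, n = 2), and 17 shared peaks. Its replicates were the least alike of the 4 bound genes in number. As in Ddx17, intron 11 was the bound intron. This intron (chr11:106644008-106645272, 1265 nt) held 8 shared peaks and 10 peaks in each replicate, and the other 11 introns held 0 over 3354 nt, where a count of 0 allows up to 3 peaks, or 0.894 per kb (upper end of the two-sided interval 1.10). The density in intron 11 was 6.32 (2.73 to 12.5). The 4 equal parts of intron 11 held 1, 3, 2 and 2 peaks. Mean reads were between 7.5 and 12. By number of shared peaks it ranked 97th of all introns (20 tied), and 12th, tied with 3 others, of those up to 5000 nt.

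A shorter coding transcript of Ddx5 has exon sequence inside this intron, so 2 of the 8 peaks count as exonic where exons of every coding transcript are taken, and 6 as intronic. Outside the intron, exon 1 held 2 shared peaks in the 5′UTR. The highest of these had 13 and 11 reads. Exons 12 and 13 held 2 and 3. From intron 11 on lay 13 of the 17 shared peaks (76.5%, interval 50.1 to 93.2), in 40.8% of the gene's length.

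**Figure D2:**
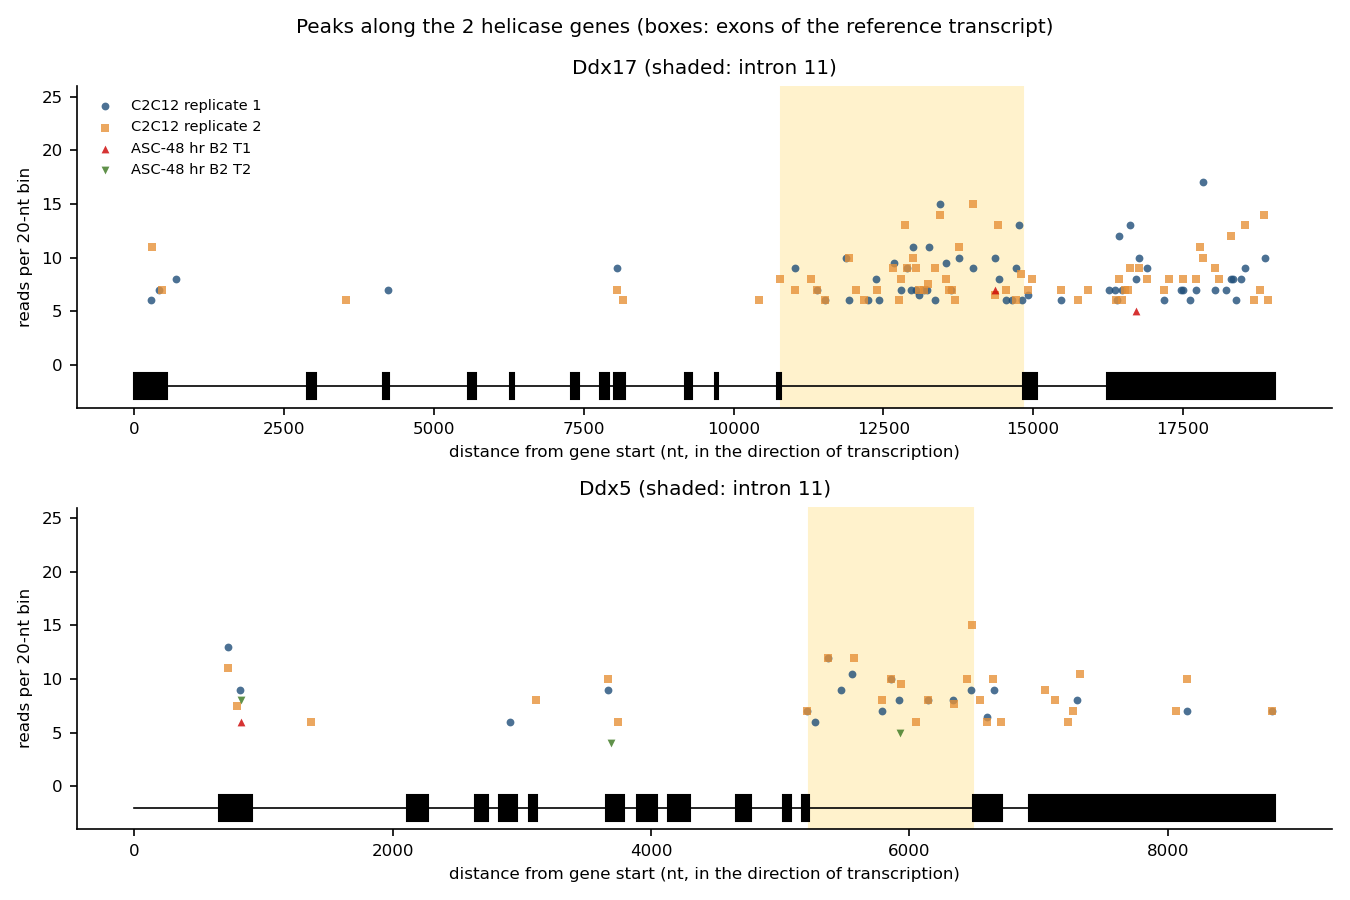
Peaks along Ddx17 and Ddx5, with the distance from the gene start in nt on the x axis and reads per 20-nt bin on the y axis. Each point is a peak of the library named in the legend, boxes are exons and the shading is intron 11, where each C2C12 replicate has 31 peaks in Ddx17 and 10 in Ddx5.

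The position of the bound intron is the same in both helicase genes. Each has 13 exons, and intron 11 follows an exon of 60 nt and comes before an exon of 225 nt in Ddx5 and 243 nt in Ddx17. Of exons 2 to 12, 8 of 11 have the same length in both genes, and identity between paired exons ranged from 65.0% to 84.8%. The introns themselves were compared only by exact matches and not aligned, so their identity is not known. The longest exact stretch that both introns share is 14 nt. The start of intron 11 is printed, 15 nt of exon in capitals and 15 nt of intron in lower case.
Ddx5 5′ splice site, chr11:106645258-106645287: CCTCCAGAGGGCTAGgttagtacaaactcg
Ddx17 5′ splice site, chr15:79366372-79366401: CCTCCCGTGGGCTAGgtttgtatagatagg
At this 5′ splice site 13 of 15 exon bases and 9 of 15 intron bases are identical. The Ddx5 intron also lies whole inside an exon of an annotated transcript of the nonsense-mediated decay class. For Ddx17 the annotation has 1 transcript.

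Srrm2 (ENSMUSG00000039218.9, chr17:23940154-23961706, plus strand) held the most peaks of the 8 genes, 81 and 77 (mean 79 ± 2.83, SD, n = 2), with 49 shared. With Ddx17 and Son it was among the 0.559% of protein-coding genes with 20 or more shared peaks. It ranked 19th and Ddx17 29th of 22359 genes, Son 74th and Ddx5 160th. Its exon 11 (chr17:23952089-23958657) is 6569 nt long and codes for most of the serine and arginine-rich part of the protein. It held 40 shared peaks (81.6% of the gene's), from 56 peaks in replicate 1 and 59 in replicate 2. Per kb this was 6.09 (4.35 to 8.29), against 1.31 (0.269 to 3.82) in the rest of the exonic sequence.

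The peaks of exon 11 were spread unevenly, with 16, 6 and 18 in its 3 equal parts from 5′ to 3′. Of its 20-nt sequences, 0.122% occur more than 1 time within the exon, but 7 of the 40 shared peaks had a first bin that occurs 2 or 3 times in the genome, so their reads cannot be assigned to 1 copy. The sequence AGAACACC, noticed after the peaks were seen, occurs 17 times in the exon and lay within 20 nt of 5 of the 40 shared peaks (12.5%), as it did for 11.9% of all bins of the exon.

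The introns of Srrm2 held 6 shared peaks, 4 of them in intron 12 (1090 nt, 3.67 per kb, interval 1.00 to 9.40). Replicate 1 had 7 peaks in this intron and replicate 2 had 5. The shared peak with the most reads there, printed above, had 11.5 and 17. The peak with the most reads in the intron had 19 in replicate 1 and was not found again in replicate 2. Intron 11, on the other side of exon 12, held 4 peaks in replicate 1 and 1 in replicate 2, of which 1 was shared. Intron 1 held the remaining shared peak. Exon 10 (193 nt) had a shared peak of 22 reads in replicate 1 and 11 in replicate 2.

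Son (ENSMUSG00000022961.10, chr16:91647751-91679466, plus strand) had 37 and 41 peaks (mean 39 ± 2.83, SD, n = 2), and 24 shared peaks. Of these, 23 lay in exon 3 (chr16:91654856-91660825, 5970 nt), which had 36 peaks in each replicate. Its 3 equal parts held 7, 9 and 7. The density was 3.85 per kb (2.44 to 5.78) in exon 3 and 0.130 (0.00330 to 0.726) in the other exonic sequence. The remaining shared peak, of 8 and 6 reads, lay in intron 4 of the reference transcript. It counted as 3′UTR because another coding transcript has exon sequence there. No shared peak of Son thus counted as intronic where exons of every coding transcript are taken. There, 3 peaks would be an intron density of 0.166 per kb (upper end of the two-sided interval 0.204).

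Son exon 3 contains repeats. Of its 20-nt sequences, 8.08% occur more than 1 time within the exon, and 5 of the 23 shared peaks had a bin that occurs 2 to 4 times in the genome. Where a read could be placed at several copies, the authors' alignment kept several positions, so the reads of these 5 peaks cannot be assigned to 1 copy. Mean reads in exon 3 were lower than in Srrm2 exon 11, with a median of 8 against 10.75.

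**Figure D3:**
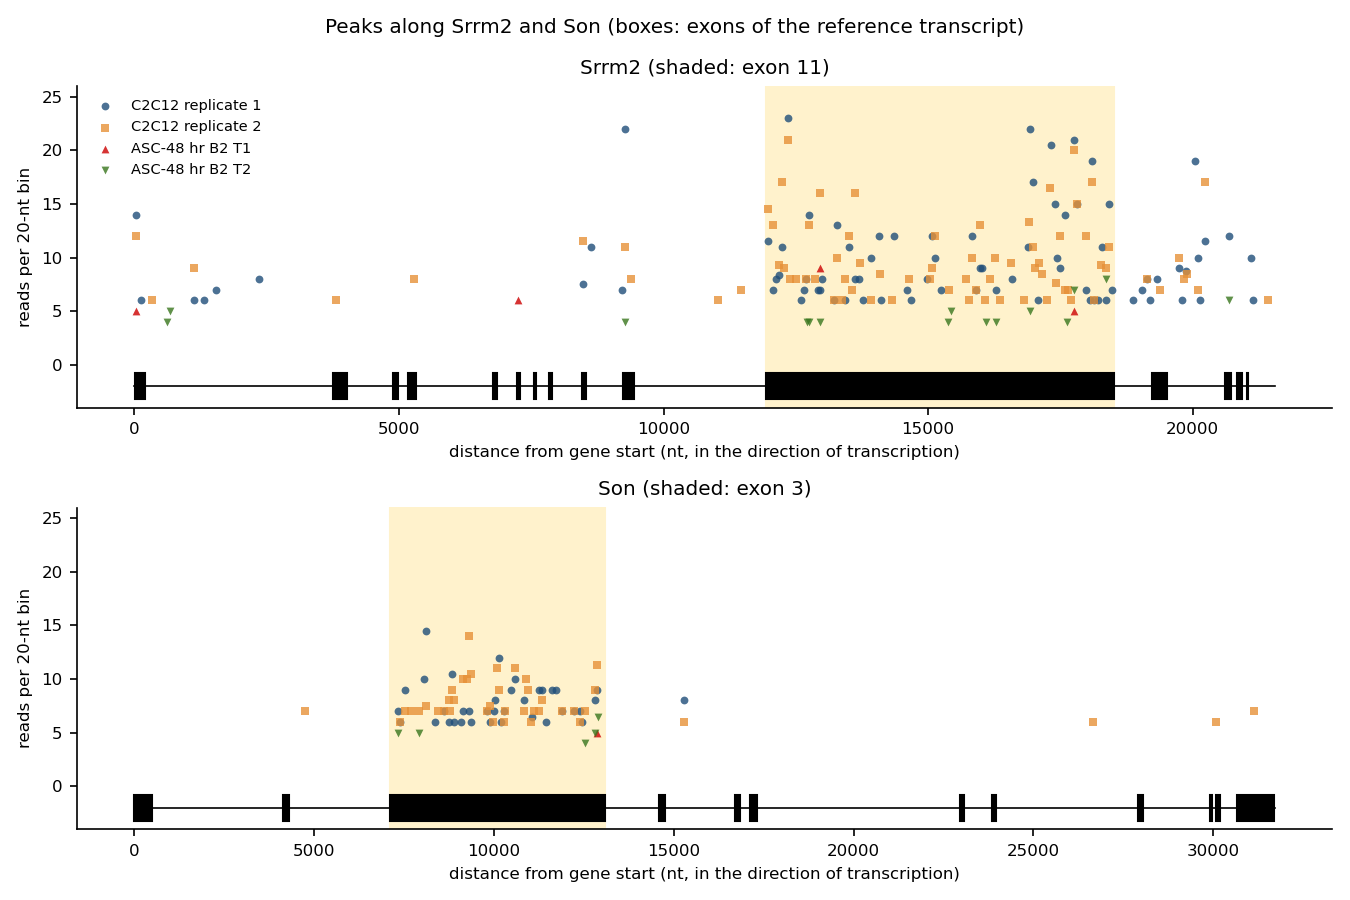
Peaks along Srrm2 and Son, with the distance from the gene start in nt on the x axis and reads per 20-nt bin on the y axis. Points are peaks of the library named in the legend, boxes are exons and the shading marks exon 11 of Srrm2 (56 and 59 C2C12 peaks) and exon 3 of Son (36 and 36).

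Long exons held more shared peaks over the genome as well. Among exons of reference transcripts the share with a shared peak was 3.02%, and 0.0527% held 10 or more, as did 3 exons of the 8 genes (Srrm2 exon 11, Son exon 3 and Ddx17 exon 13). It was 1.30% below 200 nt and 31.8% from 5000 nt up. Density rose less, from 0.124 to 0.312 per kb. Of the 573 exons of at least 5000 nt, Srrm2 exon 11 ranked 3rd and Son exon 3 ranked 5th by number of shared peaks, where the median exon held 0. The 85 exons below 200 nt in the 8 genes held 5 shared peaks, or 0.531 per kb, against 0.124 for all exons of that length. Their 2 exons of at least 5000 nt held 63, or 5.02 per kb, against 0.312. The 8 genes were thus above the value for all genes in both classes.

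**Figure D4:**
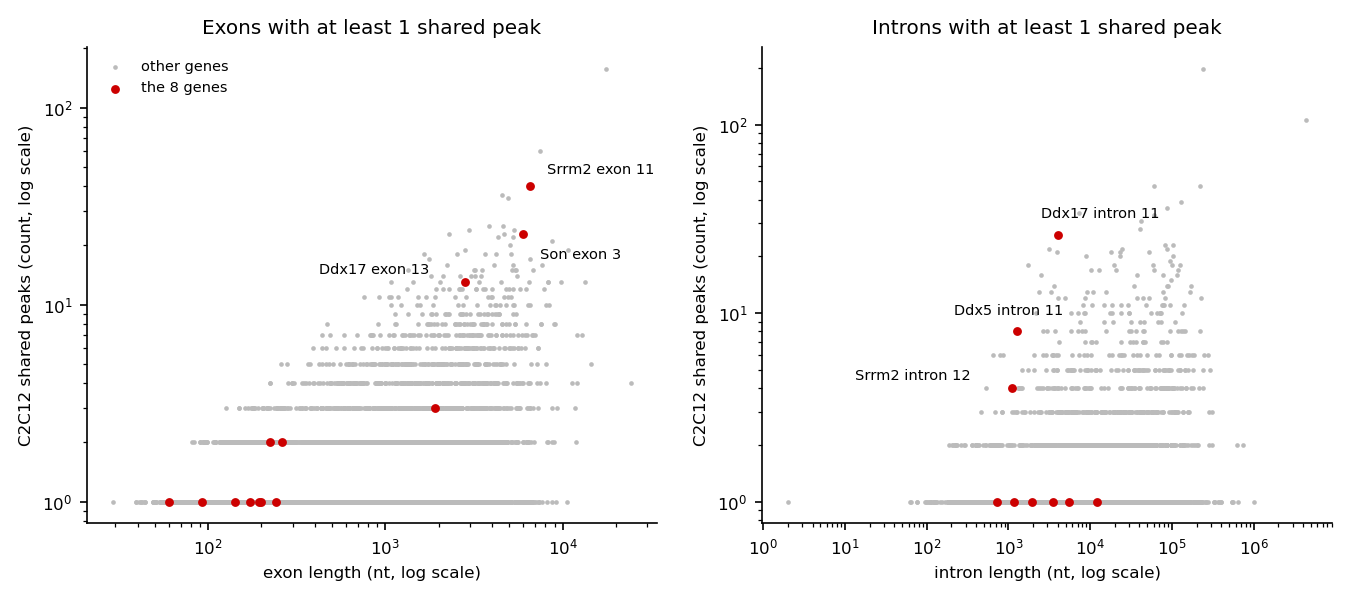
C2C12 shared peaks (y axis, count, log scale) against the length of the exon or intron in nt (x axis, log scale), for the exons and introns of all protein-coding genes that held at least 1. The 8 genes are in red. Srrm2 exon 11 (40 peaks) and Son exon 3 (23) lie among the longest exons, and Ddx17 intron 11 (26) lies to the left of other introns with as many peaks.

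The other 4 genes carried few peaks. Srrm1 (ENSMUSG00000028809.9, chr4:134876399-134909236) had 4 peaks in replicate 1 and 5 in replicate 2. Its 1 shared peak is the repeated sequence printed above, at 7 reads in both replicates. Luc7l3 (ENSMUSG00000020863.9, chr11:94149204-94183302) had 3 and 4 peaks, with 1 shared in intron 1 at 6 and 7 reads. Clk1 (ENSMUSG00000026034.10, chr1:58467033-58480910) had 3 and 1, of which 0 were shared. Clk4 (ENSMUSG00000020385.10, chr11:51075232-51095268) had 0 peaks in all 6 libraries. Peaks are listed only from 6 reads per bin upward in C2C12, so weaker binding to these genes was not detectable.

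Introns annotated as retained were next set beside the peaks. An intron was counted where it lies whole inside an exon of a transcript of the retained intron class. Of 103 introns of the 8 reference transcripts, 9 met this, in Srrm1, Ddx5, Clk1 and Clk4. They held 0 shared peaks over 5.38 kb, and a count of 0 allows up to 3, or 0.557 per kb. Over all protein-coding genes, 1.34% of 4093 such introns held a shared peak. Of the 9, 8 lie in Srrm1, Clk1 and Clk4, genes with 1 shared peak in all, and the other is Ddx5 intron 10 of 82 nt, so this count says little about retained introns in the bound genes. Replicate 2 alone had 1 peak in such an intron, Srrm1 intron 3. For Srrm2 and Ddx17 the annotation has 0 transcripts of this class, so none of their introns could be counted. With introns inside an exon of any transcript not classed as protein coding, a wider definition chosen after the data were seen, the count was 8, all in Ddx5 intron 11. Over the 8 genes, intron peaks of replicate 1 were found again in replicate 2 as often as exon peaks, 64.1% in both cases. Over all protein-coding genes the shares were 39.8% and 48.9%. Peaks lie closer together in the bound genes, which makes an overlap easier to meet, so these shares are not like for like. The intron value for the 8 genes rested mainly on Ddx17 (27 of 33 found again) and Ddx5 (6 of 8). In Srrm2 it was 6 of 17, in Srrm1 1 of 3, in Luc7l3 1 of 2 and in Clk1 0 of 1.

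The m6A consensus core GGAC was searched on the RNA strand in each shared peak and the 20 nt on either side. It was present at 23 of 134 shared peaks (17.2%, interval 11.2 to 24.6), and at 20.1% of the shared peaks of all protein-coding genes. GGACT, which is part of the same count, was present at 12 (8.96%, 4.71 to 15.1) against 6.002%. In Srrm2 exon 11, 8 of 40 peaks (20%) had GGAC, as did 20.1% of all bins of that exon. In Son exon 3 it was 5 of 23 (21.7%) against 17.4% of bins. GAAGAA, a purine-rich splicing enhancer sequence, was present at 7 shared peaks (5.22%, 2.13 to 10.5) against 2.09%. Of these 7 peaks, 3 were in Srrm2 exon 11 (7.5% of its peaks, against 6.10% of its bins) and 1 in Son exon 3 (4.35% against 3.36%). The intervals for the 8 genes include the share over all genes for GGAC and GGACT and lie just above it for GAAGAA. None of the 134 peaks lay at a run of 10 or more G on the strand of the reads, a sequence found at 1.19% of all shared peaks in protein-coding genes.

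By count, satellite cells gave few peaks in the 8 genes. Of the ASC libraries, B1 T1 and B1 T2 had 0 peaks, B2 T1 had 8 and B2 T2 had 26, a mean of 8.5 per library. Per 1000 peaks of the list this was 1.01 in B2 T1 and 1.34 in B2 T2, against 3.45 and 3.08 in C2C12. Exon peaks of the 8 genes, per 1000 exon peaks on the RNA strand, numbered 6.91 and 8.33 in B2. The C2C12 replicates had 5.61 and 6.09, and both B1 libraries 0. ASC shared peaks, found in both technical replicates of both B1 and B2, were present in 0 of 8 genes and in 2.46% of all protein-coding genes. By library, peaks were present in 7.81% of protein-coding genes for B1 T1, 10% for B1 T2, 9.07% for B2 T1 and 18.5% for B2 T2, against 33.1% and 36.9% for the C2C12 replicates. The lists differed in strand as well. Of peaks in protein-coding genes, 56.9% and 58.1% were on the RNA strand in B1, 70.5% and 70.4% in B2, and 92.8% and 90.03% in C2C12. B1 T1 and B1 T2 also had fewer exon peaks on that strand, 344 and 764, than the 1013 and 2760 of B2. Peaks in Pax7, a marker of satellite cells, numbered 1, 1, 2 and 10 in the ASC libraries and 0 and 1 in C2C12. Those in Des, a muscle intermediate filament gene, numbered 0, 3, 1 and 4 against 18 and 17. The myogenic genes Myod1 and Myf5 had 0, 2, 1 and 6 against 5 and 3, and 0, 0, 1 and 0 against 2 and 2. Binding peaks are no measure of expression. Whether these features of the lists account for the zeros in B1 was not tested. Even with the C2C12 libraries taken as biological replicates, an exact permutation test of 2 against 2 cannot give a two-sided p below 0.333, so ASC-48 hr and C2C12 were not compared by a test.

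The positions of the ASC peaks were set beside those of C2C12. The B2 peaks formed 30 sites, 26 in exons and 4 in introns, and 18 of the 30 sites overlapped a C2C12 peak, 13 of them in both replicates. Over all protein-coding genes, 37.2% of the exon peaks of B2 T1 and 27.5% of those of B2 T2 overlapped a C2C12 peak. For intron peaks the shares were 33.4% and 19.5%. These are shares of the peaks of single libraries, while the sites are merged over both, so the values are not like for like. Srrm2 held most of the ASC peaks of the 8 genes, 4 in B2 T1 and 15 in B2 T2, of which 2 and 11 were in exon 11. Son had 1 and 5, all in exon 3. Ddx5 had 1 and 3, Ddx17 had 2 and 0, Srrm1 had 0 and 2, and Luc7l3 had 0 and 1. Both intron 11 stretches had 1 ASC peak at a C2C12 shared peak. In Ddx17 it had 7 reads in B2 T1, and 10 and 6.5 in C2C12. In Ddx5 it had 5 reads in B2 T2, and 8 and 9.5 in C2C12.

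Sites found in both B2 libraries numbered 4, all of them bound in both C2C12 replicates. Their first bins are printed in capitals as above.
Srrm2 exon 11, chr17:23953096-23953125 (+): atctcGGTCTAGAACGCCAGCCAGGagagg
Srrm2 exon 11, chr17:23957896-23957925 (+): ttccaGAACACCCCAGGCTCCAACCcccgc
Son exon 3, chr16:91660576-91660605 (+): agcagAACCCCCAGCCGCAGGAGCCgaacc
Ddx5 exon 1, chr11:106649656-106649685 (-): gccgcAGGATTCTACTTTCACTGGGttccg
The first had 9 and 4 reads per bin in B2 T1 and B2 T2, and 7 and 16 in the C2C12 replicates. The second had 5 and 7, and 21 and 20 in C2C12. The Son site had 5 and 6.5, and 9 and 11.3 in C2C12. The Ddx5 site, in the 5′UTR, had 6 and 8, and 9 and 7.5 in C2C12. Reads per bin are not normalized to library size, which is unknown, so these values show presence and not relative strength.

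Related gene lists were counted in the same way in C2C12 for context. Shared peaks were present in 7 of 11 SR splicing factor genes, 18 of 22 hnRNP genes and 23 of 32 other nuclear speckle genes. The median per gene was 1, 2 and 2.5, against 9 for the 8 genes and 0 for all protein-coding genes. The 8 counts were 49, 42, 24, 17, 1, 1, 0 and 0, so no member was near its median. The intron share of the shared peaks was 40.7% (22.4 to 61.2) for SR genes, 50% (37.6 to 62.4) for hnRNP genes and 67.1% (59.0 to 74.6) for the other speckle genes, against 30.6% for the 8 genes. The lists were chosen with results of these data known and were compared without a test.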

How the data were processed

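LACE-seq peak lists of 6 libraries were used (4 ASC-48 hr, 2 C2C12). The authors trimmed reads with cutadapt 1.15, removed pre-rRNA reads, aligned the rest to mm9 with Bowtie 1.2.3, keeping reads that matched several positions, and ran Piranha on every library by itself, with 20-nt bins, to call peaks. The treatment of duplicate reads is not given in the sources used here. The deposited signal of a peak is its number of reads per bin, not normalized, and a mean of bins where a peak spans several. Piranha's p-value, also deposited, is unadjusted and reached at most between 0.000167 and 0.000995 by library. Lists held 7925 to 19448 peaks (ASC) and 60540 and 71992 peaks (C2C12). Library depth is unknown, and the lowest reads per bin listed were 4, 5 or 6.

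Peaks were assigned to GENCODE vM1 genes on NCBIM37 (mm9) by their midpoint, with priority coding sequence, 3′UTR, 5′UTR, intron over all protein-coding transcripts. Exon and intron numbers follow the reference transcript, that with the longest coding sequence. For a C2C12 shared peak, reads of replicate 2 are the mean over the peaks it overlaps. Shares have exact Clopper-Pearson and densities exact Poisson intervals (95%), which cover counting error only and treat peaks as independent. Limits for a count of 0 are those of 3 peaks. Overlap and region rules were tested on simulated lists of 4000 peaks, where 17 of 17 checks gave the known answer. Python 3.11.15, numpy 2.4.6, pandas 2.3.3, scipy 1.17.1, pysam 0.24.0 and Biopython were used. Of the 65 genes in the related lists, all were matched, 3 by an older symbol. The genes named are the 8 members, and per gene the exon and intron with most shared peaks, the highest shared peak in each, and any ASC site found in at least 2 libraries. Hnrnpl and the marker genes are named for comparison only. The members and lists were chosen with earlier results of these data known. Alternatives changed the overlap, p threshold, list counted, lowest reads, strand, exon model and repeated sequences, and left out each replicate. The sequence of the Srrm2 exon peak with most reads and the 3′ junction of intron 11 are not reported here.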

Additional observations from a re-analysis of the deposited data

Results flagged for a closer look

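In 3 genes the 4 ASC libraries differed by a single library beyond Dixon's 95% value. Srrm1 had 2 peaks in B2 T2, Luc7l3 had 1 in B2 T2 and Ddx17 had 2 in B2 T1, and each had 0 in the other 3 libraries. The 2 Srrm1 sites (exons 8 and 9) and the Luc7l3 site (exon 8) had 0 overlapping C2C12 peaks, and both Ddx17 sites overlapped at least 1. With the other libraries at 0 the ratio is past its limit at any count, so the usual rate of about 1 chance flag in 20 groups does not hold here.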

How the results depend on the processing

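No paired analysis was possible because no test was made and the peaks of different libraries carry no common scale. A stricter p threshold of 0.00001 left 20 of the 134 shared peaks, with an intron share of 20%, an exon to intron ratio of 11.3 and GGAC at 25%, all from 4 genes. At least 8 reads per bin left 65 shared peaks, also from 4 genes, with an intron share of 27.7%. Taking all peaks of a single C2C12 replicate in place of shared peaks gave 209 to 222 peaks and 0 to 1 peaks in introns annotated as retained. The wider definition of such introns gave 8. Leaving out Ddx17 gave an intron share of 15.2%, so the intron share of the set rests on that gene. Without ASC-48 hr B1, 3 genes had a peak shared by T1 and T2 of B2, and without B2 0 had one, so the range was 0 to 3. The ASC mean of 8.5 peaks per library was 1.5 at the stricter p threshold and 0.75 at 8 reads per bin, and 17 in B2 alone. Of 79 alternatives, 68 kept the value within its interval, within 1.5 times or within the spread of the libraries, and none reversed. Counts and shares have no direction, so for them a reversal was not possible. The ASC mean counted as kept at every value from 0 to 17, since the libraries ranged from 0 to 26 peaks. The tally is therefore no measure of robustness. Few reads per peak limit what can be seen in Srrm1, Luc7l3, Clk1 and Clk4.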
